A study of Mus musculus with 12 samples.

Results

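The genes described here encode the matrix metalloproteinases (Mmp), the ADAMTS proteases (Adamts) and the tissue inhibitors of metalloproteinases (Timp). They were taken from the arrays by name, as every gene symbol of the form Mmp, Adamts or Timp followed by its number, and each gene was read from its brightest probe. This gave 46 genes, 23 Mmp, 19 Adamts and 4 Timp, of 30119 named genes and transcripts on the array. Ovaries of C57BL/6J females, an inbred strain, were compared at 2 months of age in 3 diet groups of 4 mice, which the series design calls biological replicates. Control mice (samples C1 to C4) ate a normal diet, early-life mice (E1 to E4) ate a vitamin-D-deficient diet in early life only, and peripubertal mice (P1 to P4) ate it around puberty only. How long each diet lasted is not given in the sources used here.

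RNA was labelled with Cy3 (odd replicates) or Cy5 (even replicates) and read on 2-colour Agilent arrays, each of which carried 2 samples of 1 group. Arrays 1 to 4 (control and early-life samples) made up a first slide and arrays 5 and 6 (peripubertal samples) another, so that the peripubertal diet and the slide cannot be told apart. The median signal of a channel was 6.85 to 9.49 times its background, and 59.3% to 65.5% of features were well above background. All 9 granulosa cell markers and all 7 oocyte markers listed were measured, as were 4 of 5 theca and 7 of 7 luteal cell markers. Group names follow the labels under which the scanner files were submitted. The 8 control and early-life columns of the deposited value table each matched an array channel of the opposite group (correlation across probes of 0.9998 in each case), so the naming of these 2 groups is unsettled. If they are exchanged, every difference between early-life and control samples turns its sign, and what is given below for early-life against peripubertal samples applies to control against peripubertal samples.

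Matrix metalloproteinases are zinc enzymes, secreted or held at the cell surface, that together cut most proteins of the extracellular matrix. ADAMTS proteases are secreted relatives that cut proteoglycans such as versican and aggrecan, trim procollagens or act on microfibril proteins. The 4 Timp proteins bind the active site of these enzymes and block it, and Timp2 also takes part in the activation of proMmp2 by Mmp14 at the cell surface. In the ovary the matrix is remodelled in every cycle as follicles grow, rupture and turn into corpora lutea, and Adamts1 is known as a target of the progesterone receptor in granulosa cells of ovulating follicles.

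The share of the family measurable in at least 4 ovary samples was near that of all genes, and the share measurable in all 12 was lower. The probe of 31 of the 46 genes was well above background in at least 4 of the 12 samples, and that of 20 genes in all 12, against 63.3% and 55.3% of all named genes and transcripts. All 4 Timp inhibitors were above background in every sample. Of the 23 Mmp genes, 13 were above background in at least 4 samples and 6 in all 12, and of the 19 Adamts genes 14 and 10. Mmp2, Mmp11, Mmp14, Mmp15, Mmp17 and Mmp23 were the Mmp genes found in every sample. Adamts1, Adamts2, Adamts4, Adamts7, Adamts9, Adamts10, Adamts14, Adamts15, Adamts17 and Adamts19 were the corresponding Adamts genes.

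**Figure D1:**
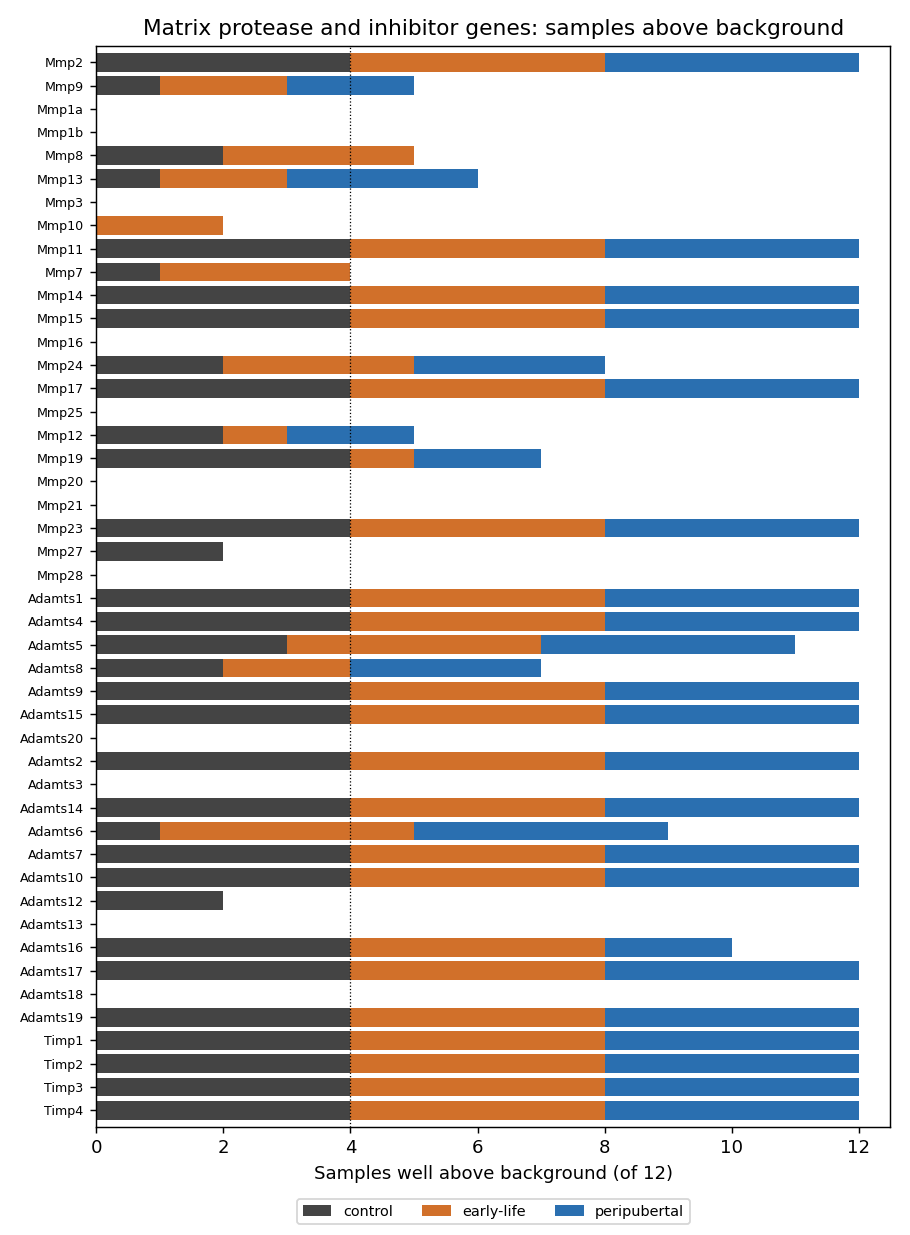
Number of samples, of 12, in which the brightest probe of each of the 46 genes was well above background, split by diet group; the dotted line marks the minimum of 4 samples for testing. All 4 Timp genes reach 12 samples, and 12 genes, among them Mmp1a, Mmp1b and Mmp3, reach none.

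The probes of 12 genes were well above background in no sample. These were the interstitial collagenases Mmp1a and Mmp1b, the stromelysin Mmp3, the membrane-type enzymes Mmp16 and Mmp25, Mmp20 (enamelysin), Mmp21, Mmp28 (epilysin), Adamts3, Adamts13 (which cuts von Willebrand factor), Adamts18 and Adamts20. For these genes the arrays give no level. Another 3 genes were above background in 2 samples each. Adamts12 had log2 intensities of 8.12 in C3 and 7.59 in C4, the 2 samples of array 2, and 6.38 to 6.81 in the other 10. Mmp27 was at 7.33 in C1 and 7.36 in C2, the samples of array 1, and at or below 6.66 elsewhere. Mmp10, stromelysin 2, was above background in E1 and E4 only, at 6.96 and 7.19.

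Detection differed by place in the genome. The probes of 10 Mmp genes lie together on mouse chromosome 9 (build mm9, 7282762 to 7697700), the cluster that holds the collagenases, stromelysins 1 and 2, matrilysin and macrophage elastase. Of these 10, 4 (Mmp7, Mmp8, Mmp12 and Mmp13) were above background in at least 4 samples and 0 in all 12. Of the 36 genes elsewhere, 27 were above background in at least 4 samples and 20 in all 12. The 2 sets also differ in their promoters, for which RefSeq windows of 300 bases (GRCm38.p6, 250 before to 50 after the annotated start) were at hand for 32 of the 46 genes, including all 10 of the cluster. Both strands were searched for the letters of each motif. The AP-1 motif TGANTCA stood in 8 of the 10 cluster promoters and in 0 of the 22 others, against 7.81% of the 32851 promoters in the table. The TATA box TATAAA stood in 9 of 10 and 2 of 22 (13.6% of all promoters), and the GC box GGGCGG in 0 of 10 and 18 of 22 (35.7%). Direct repeats of the kind the vitamin D receptor binds (AGGTCA or GGTTCA, repeated after any 3 bases) were found in 0 of the 32 windows, and each in 0.00609% of all. Of the 32 genes with a window, 18 were above background in at least 4 samples and 14 were not. The AP-1 motif stood in 3 of the 18 and 5 of the 14, the TATA box in 5 and 6, and the GC box in 12 and 6. Within the cluster, AP-1 was absent only from Mmp8, which was above background, and Mmp27, which was not. Whether these motifs bear on detection was not tested. Such matches describe the letters and do not show that a factor binds there. The 250 bases before the start are shown for a cluster gene below background, a cluster gene above it in 6 samples, and 2 genes above it in all 12, with these motifs in capitals.
Mmp3, chr9:7445572-7445821, plus strand: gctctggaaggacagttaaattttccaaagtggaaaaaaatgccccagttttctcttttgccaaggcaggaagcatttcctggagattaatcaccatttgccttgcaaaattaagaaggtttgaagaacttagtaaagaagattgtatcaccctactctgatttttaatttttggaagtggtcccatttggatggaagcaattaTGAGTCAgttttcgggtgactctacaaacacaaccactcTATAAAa
Mmp13, chr9:7272264-7272513, plus strand: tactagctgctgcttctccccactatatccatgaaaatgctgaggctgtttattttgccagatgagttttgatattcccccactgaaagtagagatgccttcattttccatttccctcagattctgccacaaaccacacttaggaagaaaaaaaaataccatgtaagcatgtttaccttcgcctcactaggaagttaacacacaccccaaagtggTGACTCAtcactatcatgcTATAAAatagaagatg
Mmp14, chr14:54431348-54431597, plus strand: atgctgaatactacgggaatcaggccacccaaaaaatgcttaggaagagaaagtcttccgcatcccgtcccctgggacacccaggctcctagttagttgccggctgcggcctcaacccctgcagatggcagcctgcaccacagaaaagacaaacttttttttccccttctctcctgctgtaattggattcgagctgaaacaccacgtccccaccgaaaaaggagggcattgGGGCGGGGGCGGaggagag
Timp3, chr10:86300162-86300411, plus strand: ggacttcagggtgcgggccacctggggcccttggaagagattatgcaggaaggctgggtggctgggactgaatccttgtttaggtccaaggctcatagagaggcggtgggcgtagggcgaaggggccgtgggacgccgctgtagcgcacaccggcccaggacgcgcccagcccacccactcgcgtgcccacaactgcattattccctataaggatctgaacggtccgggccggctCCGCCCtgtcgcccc
Mmp3 and Mmp13 each hold 1 AP-1 motif followed by 1 TATA box. Mmp14 holds 2 adjoining GC boxes, and Timp3 holds 1 on the minus strand.

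Levels below are log2 intensities after normalization, with the fitted dye effect removed, and differences are on the log2 scale. Because probes differ in brightness, each gene is compared only with itself across samples. Of the 31 genes above background in at least 4 samples, 30 were tested. Mmp23, a membrane-anchored enzyme, lost 6 of its 12 values, all 4 controls among them, to the scanner's outlier flags. With flagged spots kept, Mmp23 was at 11.60 to 11.88 in control, 11.28 to 12.43 in early-life and 12.03 to 12.38 in peripubertal samples, and the adjusted p of its 3 comparisons was 0.362 to 0.901. For Timp2 the brightest probe lost 10 values in the same way, so that its next probe was tested. Mmp14 had no value in P3 and P4 and Adamts2 none in C2.

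The 30 tested genes varied widely between single ovaries. The median range over the 12 samples was 1.14, against 0.65 for all 18559 genes tested, and 7 of 30 (23.3%) ranged over more than 2 log2 units, against 6.61% of all genes. These 7 were Timp4 (range 4.34), Adamts8 (3.80), Timp1 (2.23), Mmp7 (2.14), Mmp8 (2.10), Adamts1 (2.05) and Mmp2 (2.04). In the heat map the high values of Timp4 and Mmp8 lie in C1, C4, E1, E3 and E4, those of Mmp7 in C1, E1, E3 and E4, and those of Adamts8 in P3 and P4, so that none of these sets made up a whole diet group.

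**Figure D2:**
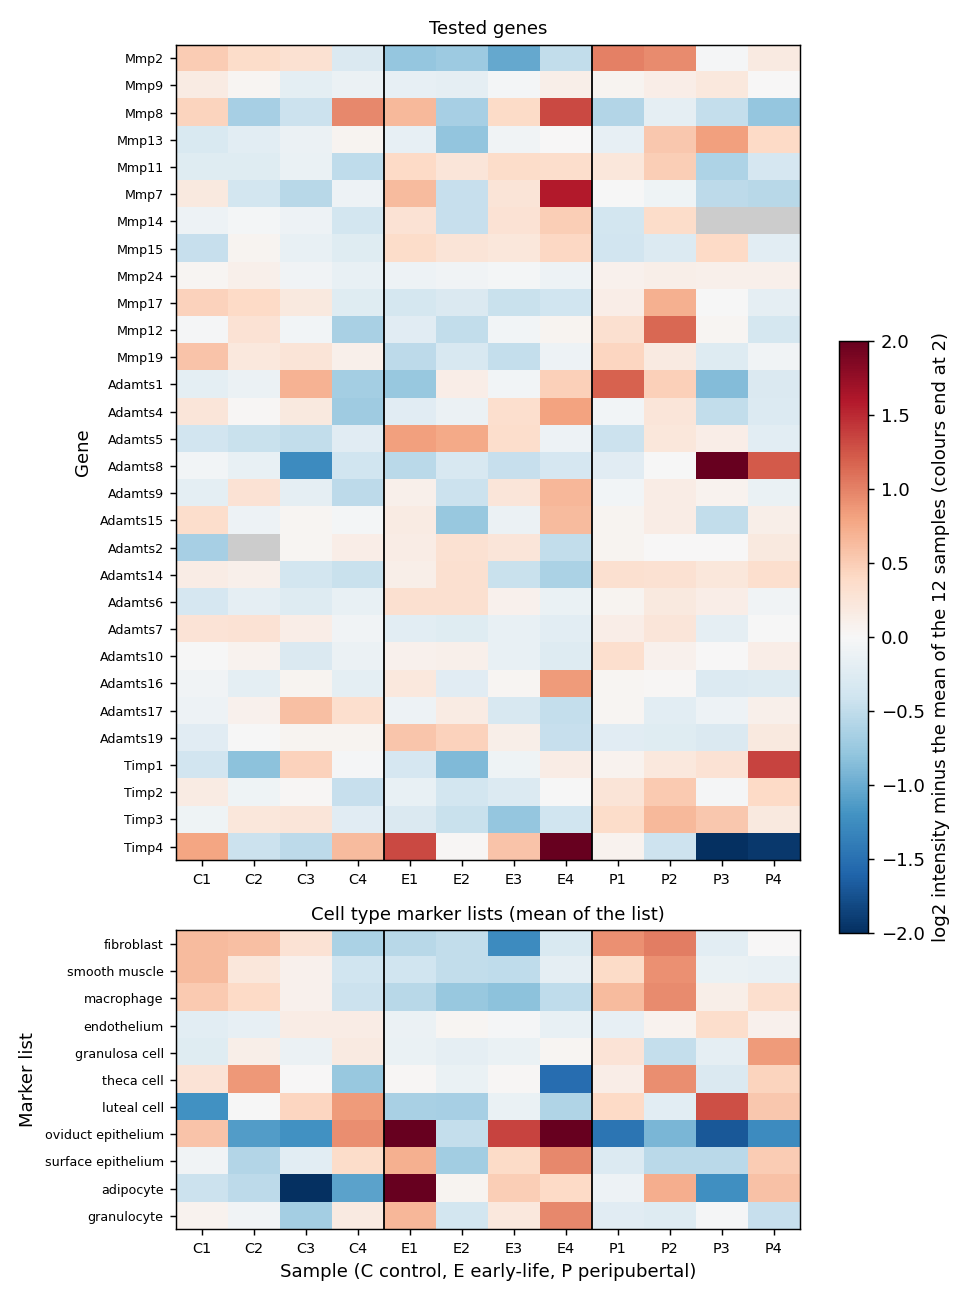
Log2 intensity of the 30 tested genes (upper panel, rows) and mean of cell type marker lists (lower panel) in the 12 samples (columns), each minus its mean over the samples; grey marks a missing value and colours end at 2. Mmp2 and the fibroblast, macrophage and smooth muscle lists are low in all 4 early-life samples. The 5 samples high on the oviduct list are also the highest for Timp4 and Mmp8.

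The diet groups were compared in 1 limma model with p-values adjusted over all 18559 genes (Benjamini-Hochberg). Between early-life and control ovaries 0 of 30 genes passed an adjusted p of 0.05, as did 0% of all genes, while 9 had an unadjusted p under 0.05 (13.9% of all genes). All values of the groups were apart for 9 of the 30 genes, against 17.2% of all genes. Adamts5, Adamts6, Mmp11 and Mmp15 lay higher in early-life samples (5.36% of all genes were apart in that direction), and Adamts7, Mmp17, Mmp19, Mmp2 and Timp3 lay lower (11.8%). Between peripubertal and control ovaries 0 of 30 passed, against 0.269% of all genes, and 2 had an unadjusted p under 0.05 (11.4% of all genes). The values of Adamts6 and Adamts14 were apart there, both higher in peripubertal samples, and 0 were apart and lower. Of all genes, 16.2% were apart, 8.72% higher and 7.43% lower. Between early-life and peripubertal ovaries 2 of 30 passed, Timp3 and Mmp2, both lower in early-life samples, against 2.54% of all genes. Values were apart for 5 of 30 (Adamts8, Mmp17, Mmp2, Mmp24 and Timp3, all lower in early-life samples), against 24.4% of all genes, 16.4% in that direction and 8.03% in the other, and 8 of 30 had an unadjusted p under 0.05 (24% of all genes). The intraspot model, another limma fit for 2-colour data, gave 0, 0 and 2 calls in the 3 comparisons. The 3 comparisons share samples and are not independent.

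**Figure D3:**
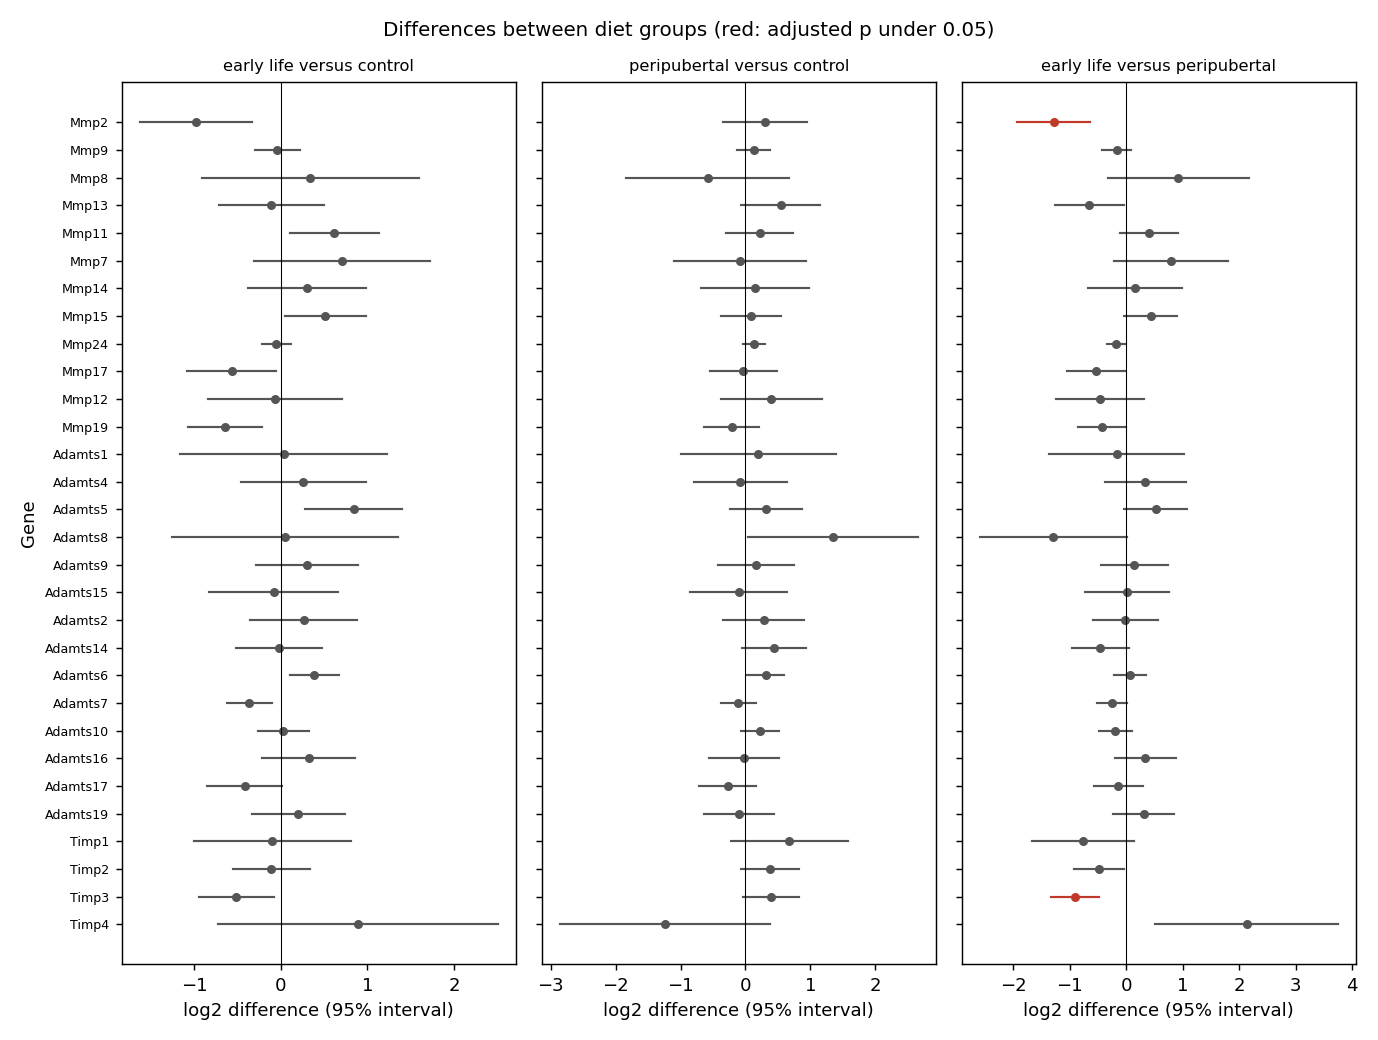
Log2 difference with its 95% interval for the 30 tested genes in the 3 comparisons of diet groups; red marks an adjusted p under 0.05. Only Mmp2 and Timp3 in early life versus peripubertal are red, and the intervals of Timp4, Adamts8 and Adamts1 are among the widest.

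Mmp2 (gelatinase A), which cuts denatured collagen and the type IV collagen of basement membranes, fell in early-life relative to peripubertal ovaries, and so did Timp3, the inhibitor that binds to the matrix and also blocks several ADAMTS and ADAM proteases. Mmp2 was at 11.30, 11.35, 11.05 and 11.59 in the early-life samples and at 13.08, 13.03, 12.06 and 12.25 in the peripubertal samples. The controls were at 12.58, 12.45, 12.39 and 11.79, so that all 4 early-life values lay below the other 8. The Mmp2 difference between early-life and peripubertal samples was -1.28 ± 0.29 (SE, n = 4 and 4; 95% interval -1.93 to -0.64), with a limma adjusted p of 0.049998, which is at the threshold. Against controls the early-life difference was -0.98 ± 0.29 (limma adjusted p = 0.234).

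Timp3 was at 13.62, 13.46, 13.14 and 13.52 in early-life samples, at 14.27, 14.55, 14.45 and 14.11 in peripubertal samples and at 13.82, 14.13, 14.16 and 13.68 in controls. Again the 4 early-life values were the lowest of the 12. The difference between early-life and peripubertal samples was -0.91 ± 0.19 (95% interval -1.34 to -0.48; limma adjusted p = 0.0437), and that between early-life and control samples -0.51 ± 0.19 (limma adjusted p = 0.304). Both calls rest on few samples. Without 1 sample at a time, Timp3 stayed under 0.05 when C4 or E2 was left out and Mmp2 when C4, E2 or P3 was left out; without any other sample the call was lost, with an adjusted p of up to 0.125 for Timp3 and 0.143 for Mmp2. The differences themselves kept their sign, at -1.0 to -0.80 and -1.44 to -1.15. With the arrays of these 2 groups swapped, control for early life, both genes are higher in peripubertal than in control samples by the same amounts, and the early-life against peripubertal differences become -0.30 for Mmp2 and -0.40 for Timp3 (limma adjusted p = 0.745 and 0.478).

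The measuring probes of these 2 genes have 60 bases and 1 position each in build mm9; their first 30 bases are shown because both calls rest on 1 probe per gene.
Mmp2 probe, chr8:95376840-95376899, plus strand: gttcttcaacatctatgacctttttatggc
Timp3 probe, chr10:85811696-85811755, plus strand: atagtgacttttggggatagatctgtctgg

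Several marker lists moved with these samples, some lower and some higher in early life. Each list mean covered only the markers with a value in a sample, so a missing bright marker lowers it and a missing dim one raises it. The fibroblast list (5 of 6 markers tested: Pdgfra, Col1a2, Col3a1, Dcn and Lum) had a mean, relative to the 12 samples, of -1.26 to -0.30 in early-life, -0.63 to 0.63 in control and -0.21 to 1.02 in peripubertal samples. The bright marker Dcn had no value in E3, the sample at -1.26. The macrophage list was at -0.82 to -0.51, -0.42 to 0.53 and 0.12 to 0.95, and the smooth muscle list at -0.51 to -0.17, -0.39 to 0.64 and -0.15 to 0.91. The mean of the endothelium list was at -0.15 to 0.04, -0.20 to 0.15 and -0.16 to 0.35. Its bright marker Cdh5 had no value in C1, C2, P1 and P2, which lowered the means of these samples. The overlap of the list means can therefore not be read as equal levels. Tek and Emcn were lower in every early-life sample than in any peripubertal sample, and Pecam1, Cdh5, Kdr and Tie1 overlapped between these groups. The oviduct epithelium list (10 of 11 markers tested) was higher in every early-life sample, at -0.48 to 2.82, than in any peripubertal sample, at -1.69 to -0.92, with controls at -1.21 to 0.93. The adipocyte list (6 of 7 tested) was at 0.06 to 3.07 in early-life, -2.0 to -0.43 in control and -1.22 to 0.73 in peripubertal samples, so that early-life and control samples were apart. In these lists values were also missing for Cnn1 (C3, C4 and P4), Ovgp1 (C1 and C2), Epcam (C1), Krt18 (E3) and Retn (P2). The sample with the lowest Mmp2 and Timp3, E3, was the lowest on the fibroblast, macrophage and smooth muscle lists. P1 and P2, the 2 highest for Mmp2, were the 2 highest on both the fibroblast and the macrophage list. The match with the fibroblast list was not complete. P3, at 14.45 for Timp3, was at -0.21 on it. C4, at -0.63, lay below E1, E2 and E4 on that list but above them for Mmp2 and Timp3. E3 was also the lowest for each of Pdgfra, Col1a2, Col3a1 and Lum. The part of any of these cells in the Mmp2 and Timp3 differences was not tested, and in RNA of whole ovaries fewer cells of a type and less RNA per cell cannot be told apart.

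**Figure D4:**
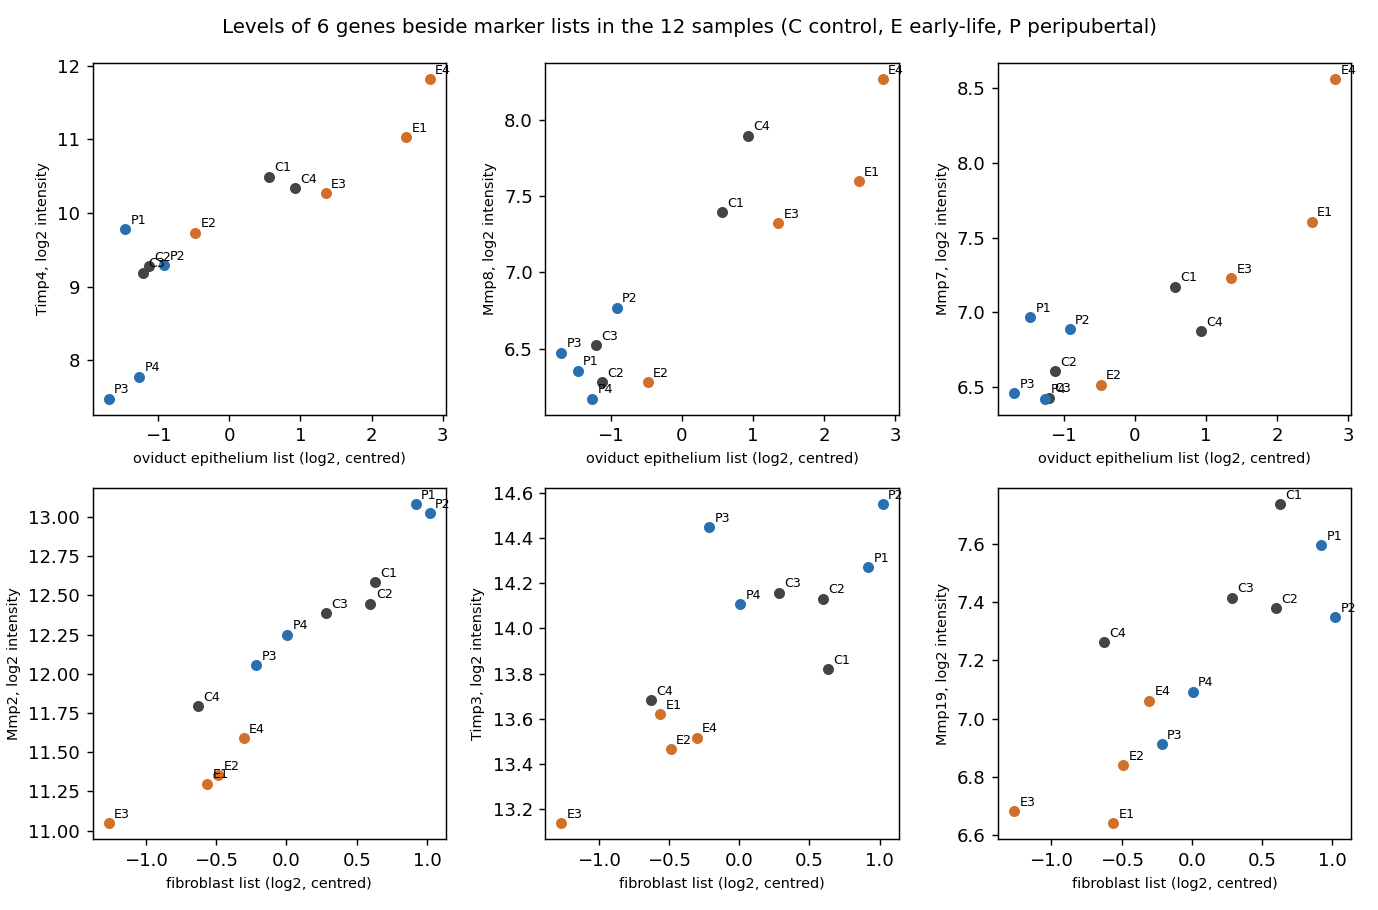
Log2 intensity of 6 genes (vertical axes) beside the mean of the oviduct epithelium list (upper row) or the fibroblast list (lower row), each list relative to its 12-sample mean; each point is a labelled sample. The 5 samples above 0 on the oviduct list (C1, C4, E1, E3 and E4) are the 5 highest for Timp4 and Mmp8, and E3 is lowest for Mmp2 and Timp3 and on the fibroblast list. The fibroblast mean of E3 lacks Dcn. E3 was also the lowest on the macrophage and smooth muscle lists, which are not drawn here.

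The other gelatinase, Mmp9 (gelatinase B), was close to background, with 5 of 12 samples above it. Mmp9 was at 7.15, 7.03, 6.78 and 6.86 in control, 6.81, 6.81, 6.94 and 7.10 in early-life and 7.03, 7.12, 7.19 and 6.99 in peripubertal samples. The groups overlapped, and the 95% interval of the Mmp9 difference was -0.30 to 0.22 for early life and -0.13 to 0.38 for peripubertal samples, each against control.

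Of the remaining inhibitors, Timp1 and Timp2 had their highest group mean in peripubertal and their lowest in early-life samples. The order was the reverse for Timp4. Differences between the inhibitors were not tested. Timp1, a secreted inhibitor induced by many stimuli, was at 14.05, 13.62, 14.89 and 14.42 in control, 14.10, 13.55, 14.34 and 14.59 in early-life and 14.50, 14.65, 14.72 and 15.78 in peripubertal samples. P4 was the highest and the groups overlapped; the peripubertal difference from control was 0.67 ± 0.41 (limma adjusted p = 0.564). Timp2 was at 11.88, 11.61, 11.73 and 11.25 in control, 11.56, 11.33, 11.43 and 11.70 in early-life and 11.97, 12.23, 11.68 and 12.11 in peripubertal samples. The early-life Timp2 values overlapped the peripubertal ones by 1 sample on each side (difference -0.49 ± 0.20, limma adjusted p = 0.177). The brightest Timp2 probe, with flagged spots kept, gave a difference of -0.70 ± 0.19 for the same comparison (limma adjusted p = 0.0758), and 0.43 ± 0.19 for peripubertal against control. On that probe all early-life values (13.42 to 13.95) lay below all peripubertal ones (14.13 to 14.62), and the controls (13.62 to 14.17) overlapped both.

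Timp4, an inhibitor with a narrower tissue range than the other 3, had the widest range of the 30 genes. It was at 10.50, 9.28, 9.19 and 10.34 in control, 11.03, 9.73, 10.27 and 11.82 in early-life and 9.78, 9.29, 7.48 and 7.77 in peripubertal samples. The 2 lowest values, P3 and P4, were the samples of array 6, and E4 and E1 were the highest. The early-life difference from peripubertal samples was 2.13 ± 0.73 (95% interval 0.51 to 3.75; limma adjusted p = 0.127), and the groups overlapped.

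Timp4 shared its 5 highest samples with Mmp8 and 4 of them with Mmp7, both of the chromosome 9 cluster. Mmp8, the neutrophil collagenase, was at 7.40 in C1, 7.90 in C4, 7.60 in E1, 7.32 in E3 and 8.27 in E4, and at 6.17 to 6.77 in the other 7 samples. Mmp7 (matrilysin), an epithelial enzyme, was at 8.56 in E4, 7.61 in E1, 7.23 in E3 and 7.17 in C1, and at 6.42 to 6.97 in the rest, C4 (6.87) included. C1, C4, E1, E3 and E4 were also the 5 samples with the oviduct epithelium list above its mean, at 0.56, 0.93, 2.48, 1.35 and 2.82, and the other 7 were at -1.69 to -0.48. The granulocyte list (6 of 8 tested) was at -0.68 to 0.18 in control, -0.36 to 0.97 in early-life and -0.46 to -0.02 in peripubertal samples, with Ngp and Mpo not tested. Within that list Ltf, lactoferrin, had the widest range. It was at 13.06 in C1, 13.29 in C4, 16.00 in E1, 14.32 in E3 and 16.18 in E4, against 8.34 to 11.19 in the other 7 samples (8.34 to 9.79 in peripubertal samples). S100a8 and S100a9 were instead highest in P3, at 8.91 and 10.67. Camp, Elane and Csf3r ranged over the 12 samples only from 7.48 to 8.29, 9.73 to 10.48 and 13.38 to 14.31. The part of oviduct tissue or blood cells in these levels was not tested. Neither gene was well above background in any peripubertal sample. Mmp8 had a mean of 7.37 ± 0.83 (SD, n = 4) in early-life and 6.44 ± 0.25 in peripubertal samples (limma adjusted p = 0.342, 95% interval of the difference -0.33 to 2.18). Mmp7 was at 7.48 ± 0.85 and 6.68 ± 0.28 (limma adjusted p = 0.313, interval -0.22 to 1.81). With peripubertal values raised to at least the lowest signal called above background, the early-life mean was 1.34-fold higher for Mmp8 and 1.44-fold for Mmp7. Control samples, with a mean Mmp8 of 7.02 ± 0.75, were 1.06-fold higher in the same way (limma adjusted p = 0.746, interval of peripubertal minus control -1.84 to 0.67). The control mean of Mmp7 lay below that signal. These ratios compare group means that include samples below background, and each interval includes 0, so they set no lower limit on a difference.

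Among the membrane-type enzymes, Mmp14, which activates proMmp2, was at 10.94, 10.99, 10.93 and 10.67 in control, 11.32, 10.57, 11.32 and 11.53 in early-life and 10.66 and 11.40 in the 2 measured peripubertal samples. The groups overlapped, and the early-life difference from control was 0.30 ± 0.30 (limma adjusted p = 0.640). Mmp15 was at 9.26, 9.78, 9.58 and 9.48 in control, 10.09, 9.98, 9.96 and 10.15 in early-life and 9.35, 9.46, 10.13 and 9.51 in peripubertal samples. All early-life Mmp15 values lay above all controls, and P3 lay among them (0.51 ± 0.21, limma adjusted p = 0.329). Mmp17, which is tethered by a lipid anchor, was at 9.51, 9.44, 9.23 and 8.80 in control, 8.70, 8.76, 8.60 and 8.65 in early-life and 9.18, 9.76, 9.04 and 8.86 in peripubertal samples. The 4 early-life Mmp17 values were the lowest of the 12, at -0.57 ± 0.23 against control and -0.53 ± 0.23 against peripubertal samples (limma adjusted p = 0.326 and 0.193). Mmp24 was at 6.98, 7.04, 6.87 and 6.80 in control, 6.84, 6.88, 6.91 and 6.85 in early-life and 7.04, 7.06, 7.04 and 7.05 in peripubertal samples, a spread of 0.26 in all.

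Mmp11 (stromelysin 3), made by stromal cells during remodelling, was at 14.21, 14.20, 14.31 and 13.94 in control, 14.84, 14.68, 14.80 and 14.79 in early-life and 14.67, 14.94, 13.82 and 14.10 in peripubertal samples. Early-life Mmp11 values lay above all controls (0.62 ± 0.23, limma adjusted p = 0.304), while the peripubertal samples split by array, P1 and P2 of array 5 above P3 and P4 of array 6. Mmp19, a secreted enzyme found in many tissues, was at 7.74, 7.38, 7.42 and 7.26 in control, 6.64, 6.84, 6.68 and 7.06 in early-life and 7.60, 7.35, 6.91 and 7.09 in peripubertal samples. Its difference between early-life and control samples was -0.64 ± 0.19 (limma adjusted p = 0.235), with 4 of 4 control and 1 of 4 early-life samples above background. Mmp13 (collagenase 3) was at 6.77, 6.86, 6.96 and 7.13 in control, 6.91, 6.28, 7.0 and 7.08 in early-life and 6.91, 7.61, 7.90 and 7.47 in peripubertal samples. P2, P3 and P4 were its 3 samples highest in level, and the peripubertal difference from control was 0.54 ± 0.27 (limma adjusted p = 0.494). Mmp12 (macrophage elastase) ranged from 6.38 in C4 to 8.18 in P2 and was above background in 5 samples.

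**Figure D5:**
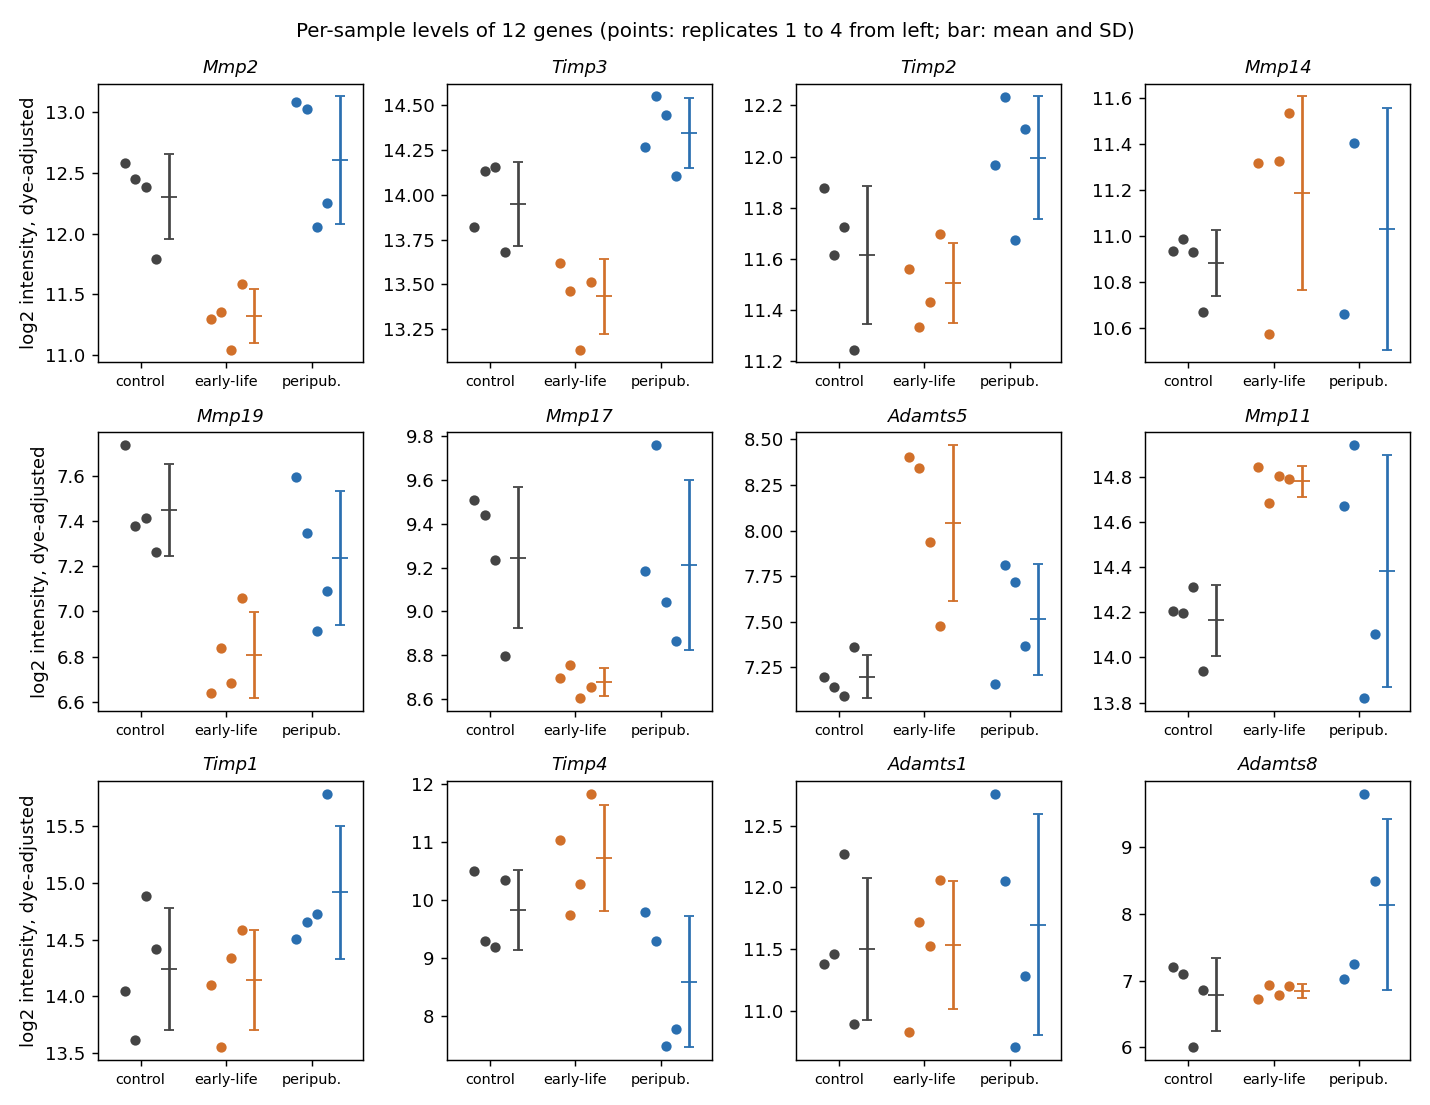
Dye-adjusted log2 intensity of 12 genes in each sample (points, replicates 1 to 4 from left in each group) with the group mean and SD (bar); vertical axes differ between genes and do not start at 0. The 4 early-life points of Mmp2, Timp3 and Mmp17 lie below all others of the same gene, and Adamts8 is high in P3 and P4.

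Among the proteoglycan-cutting ADAMTS enzymes, Adamts1 was at 11.38, 11.46, 12.27 and 10.89 in control, 10.83, 11.72, 11.53 and 12.06 in early-life and 12.76, 12.05, 10.70 and 11.28 in peripubertal samples. The groups overlapped throughout, and the 95% interval of the early-life difference from control, -1.16 to 1.23, left room for changes in either direction. Adamts5, an aggrecanase and versicanase, was at 7.20, 7.14, 7.09 and 7.36 in control, 8.41, 8.34, 7.94 and 7.48 in early-life and 7.16, 7.81, 7.72 and 7.37 in peripubertal samples. All early-life Adamts5 values lay above all controls, with a difference of 0.84 ± 0.25 (limma adjusted p = 0.235). A second Adamts5 probe, some way along the gene, gave 0.66 in the same direction, from means of 7.08 in control and 7.74 in early-life samples.

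Adamts8 was at 9.80 in P3 and 8.49 in P4, the samples of array 6, and at 6.00 to 7.24 in the other 10 samples. Its peripubertal difference from control, 1.35 ± 0.59 (limma adjusted p = 0.423), thus rested on the samples of 1 array. The next Adamts8 probe was well above background in no sample. The first 30 bases of the probes of Adamts5 and Adamts8 are shown because the former pair agrees in direction, while of the latter only 1 probe was detected.
Adamts5 brightest probe, chr16:85899450-85899509, minus strand: ccacgaccctcaagaacttttgcaaatggc
Adamts5 next probe, chr16:85858402-85858461, minus strand: ggacacattgcaatacaggtccattcatta
Adamts8 brightest probe, chr9:30751050-30751109, plus strand: cagaagactcccgcaaagtgccaccaccct
Adamts8 next probe, chr9:30770384-30770443, plus strand: acccatttcaagtatttatgcaaatatgtc

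Adamts4, Adamts9 and Adamts15, further enzymes that cut proteoglycans, overlapped between all groups. They ranged over the 12 samples from 8.18 to 9.69, from 10.84 to 12.03 and from 7.53 to 8.92, and E4 was the highest sample for all 3. Of the enzymes that remove the amino-terminal propeptide of fibrillar procollagens, Adamts2 ranged from 12.66 in C1 to 13.63 in E2. Adamts14 was at 10.40, 10.34, 9.87 and 9.80 in control, 10.35, 10.57, 9.79 and 9.62 in early-life and 10.57, 10.54, 10.47 and 10.58 in peripubertal samples. All peripubertal Adamts14 values lay above all controls (0.44 ± 0.22, limma adjusted p = 0.504). In control and early-life ovaries the lower values belonged to replicates 3 and 4, which share an array in each group.

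Of the other ADAMTS genes, Adamts6, a relative of the microfibril protease Adamts10, was at 6.81, 6.97, 6.89 and 7.01 in control, 7.48, 7.48, 7.24 and 7.03 in early-life and 7.20, 7.35, 7.29 and 7.09 in peripubertal samples. The 4 controls were the lowest of the 12, by 0.39 ± 0.13 against early-life and 0.31 ± 0.13 against peripubertal samples (limma adjusted p = 0.266 and 0.391), and only 1 of 4 controls was above background. Adamts7, which cuts cartilage oligomeric matrix protein, was at 8.73, 8.74, 8.59 and 8.39 in control, 8.24, 8.21, 8.30 and 8.24 in early-life and 8.58, 8.69, 8.28 and 8.45 in peripubertal samples. The early-life Adamts7 values lay below all controls, with a difference of -0.36 ± 0.12 (limma adjusted p = 0.262). Adamts10 was at 7.73, 7.81, 7.46 and 7.63 in control, 7.83, 7.84, 7.60 and 7.48 in early-life and 8.08, 7.82, 7.75 and 7.88 in peripubertal samples, with the groups overlapping. Adamts17 was at 7.96, 8.16, 8.67 and 8.40 in control, 7.96, 8.23, 7.75 and 7.60 in early-life and 8.10, 7.86, 7.97 and 8.17 in peripubertal samples, also overlapping. Adamts16 was highest in E4 at 8.06 and otherwise at 6.93 to 7.42. Adamts19, read from 10 spots of 1 probe, ranged from 9.96 in E4 to 10.98 in E1.

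Genes that act with these proteases were counted from 4 lists. Of 34 regulators of matrix proteases (plasminogen activators, serpins, cathepsins and others) 25 were tested, and 2 passed, Reck and Spock2, both lower in early-life than in peripubertal samples (2.54% of all genes passed in that comparison). Reck, a membrane-anchored inhibitor of several Mmp enzymes, was at 8.16, 8.05, 8.07 and 8.10 in early-life, 8.84, 9.22, 8.70 and 9.06 in peripubertal and 8.72, 8.59, 8.84 and 8.30 in control samples. The 4 early-life Reck values were the lowest of the 12, with a difference from peripubertal samples of -0.86 ± 0.18 (limma adjusted p = 0.0409). Spock2, a secreted proteoglycan of the testican family, was at 9.49, 9.91, 9.81 and 9.46 in early-life, 10.47, 10.56, 10.34 and 10.51 in peripubertal and 10.45, 10.10, 10.11 and 10.12 in control samples, a difference of -0.80 ± 0.16 (limma adjusted p = 0.0383). Early-life Spock2 values were likewise the lowest. The median over the 25 regulators was -0.06 in that comparison, beside -0.03 for all genes. No gene of this list passed in the other 2 comparisons, where 6 (early life) and 3 (peripubertal) of 25 had an unadjusted p under 0.05 in limma, beside 13.9% and 11.4% of all genes.

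In the other 3 lists 0 genes passed in any comparison. Of all genes, 13.9%, 11.4% and 24% had an unadjusted limma p under 0.05 in early life versus control, peripubertal versus control and early life versus peripubertal, and the counts below are in that order. Of 12 genes of the ADAM family, 12 were tested, with 2, 2 and 3 under that p. Adam22 was at 12.39 in E3 and 12.02 in E4, the samples of array 4, at 8.95 in E1 and at 6.55 to 8.26 elsewhere. Of 31 genes for matrix substrates and the hyaluronan matrix 26 were tested, with 5, 1 and 4 at an unadjusted limma p under 0.05. Their median difference was -0.13, 0.09 and -0.24, beside -0.02, 0.01 and -0.03 for all genes. The list holds Dcn and Lum, which are also on the fibroblast list. Versican (Vcan), the substrate that Adamts1 cuts in the ovulating follicle, was at 11.16, 11.42 and 10.78 in C1, C3 and C4, 12.26, 11.70, 12.40 and 12.34 in early-life and 11.25, 11.85, 11.19 and 11.88 in peripubertal samples. The early-life Vcan values lay above the 3 measured controls (1.05 ± 0.32, limma adjusted p = 0.242), and E2 lay among the peripubertal values. Of 13 genes induced by the ovulatory surge of luteinizing hormone, 8 were tested, with 1, 1 and 2 at an unadjusted limma p under 0.05.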

How the data were processed

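Total RNA of 12 ovary samples was measured on 6 arrays, read with Agilent Feature Extraction 11.0.1.1 per the file headers. The deposited scanner files give, for each spot, its mean signal and the background around it as unnormalized intensity, and a processed signal in intensity units. The authors' deposited value table holds log2 values with each column's median at 0, as tested on the values; how it was made, and whether its direction or naming was altered, is not given in the sources used here, and it served as an alternative and for the naming check only.

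Probes were named by RefSeq accession, symbol or synonym where possible (27228, 3581 and 565 of 39429) and otherwise by the file; no name of the 46 genes differed. In R 4.3.3 with limma 3.58.1 (packages data.table, version 1.17.8, and statmod, version 1.5.0), background was corrected by normexp with an offset of 50, followed by loess within and Aquantile between arrays. Spots flagged as outliers were left out (2.82% of values of the probes kept). Probes well above background in at least 4 samples, with at least 2 values per group, were tested, the brightest per gene. The fit had group and dye as terms and the array as random block (correlation 0.288). Correlations of deviations between samples of the same replicate number were -0.353 to 0.520. Of 12 such pairs 3 were above 0.1, all between control and early-life samples (replicates 1, 2 and 4). Whether the numbers pair samples of these groups is thus not settled.

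Data were simulated from this model for early life versus peripubertal over 18559 genes. Of these genes, 67, 67 and 66 were changed 1.5-fold, 2-fold and 4-fold, and 43.3%, 74.6% and 97.0% of these changes were recovered. In all, 14 of 157 calls were false, above the share of 0.05 that the threshold allows for. The real comparison had 471 calls and early life versus control had 0, so these rates need not hold for either. The number of arrays limits the precision. Genes given sample by sample are those that passed, the 10 with the smallest p per comparison, those ranging over more than 2 log2 units, and Mmp2, Mmp9, Mmp14, Mmp19, Adamts1 and Timp1 to Timp3; of each related list, up to 4 genes with the smallest p could be named. Mmp23 and single values of other genes were added after their values were seen. The genes, lists and tests were chosen with earlier results of these data known. Coordinates of probes are those of the files (mm9); no annotation of that build was used, so exon or UTR is not stated.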

Additional observations from a re-analysis of the deposited data

Results flagged for a closer look

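Of 88 sets of 4 samples (a gene in a diet group), 2 held a sample whose gap to the nearest other sample exceeded the 95% critical value of Dixon's test; chance alone flags about 5% of sets. Adamts15 was at 7.80 in P3, below the 8.34 to 8.44 of the other peripubertal samples. Adamts19 was at 10.62 in P4, above the 10.13 to 10.20 of the others.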

How the results depend on the processing

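Each diet group has 4 samples on 2 arrays, which limits all tests, and genes near background, such as Mmp9, Mmp24 and Mmp13, can show only part of a change. With at least 8 or at least 1 sample required, 24 and 34 of the 46 genes counted as above background, beside 31. In early life versus control the number of genes called stayed at 0 of those tested in each alternative run, including the deposited value table and the 8 samples of slide 1 alone, which was chosen after seeing the data. In peripubertal versus control it stayed at 0 except when the arrays of the control and early-life groups were exchanged and 2 passed, Mmp2 (1.28) and Timp3 (0.91). In early life versus peripubertal, 2 became 0 with that exchange and without a filter on dim probes, where 45 of the 46 genes and 29650 in all were tested. It became 1 (Timp3, with Mmp2 at an adjusted p of 0.0508 to 0.0554) with scanner processed signals, with outlier spots kept, with trend and robust variance and with the next brightest probe. It stayed at 2 with no background subtraction, quantile normalization, the stricter filter, no array block, no dye term, the replicate block in place of the dye term (limma adjusted p = 0.0424 and 0.0434) and the intraspot model. Leaving out each sample gave 0 to 0, 0 to 0 and 0 to 2 calls in the 3 comparisons. The replicate block changed no call of these genes. Over all genes, the alternatives other than the exchange and left-out samples gave 0 to 116, 14 to 159 and 348 to 2099 calls, beside 0, 50 and 471; left-out samples gave 0 to 108, 0 to 29 and 2 to 1576.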

Other observations

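The 4 peripubertal columns of the authors' deposited value table match no array used here (correlation across probes of at most 0.897 with any channel), so they entered no comparison. Their values for several matrix genes lie apart from those of the other 8 columns, on the table's median-centred log2 scale. Mmp2 was at -1.82 to 0.15 there and at 2.31 to 5.19 in the other columns. Mmp11 was at -0.94 to 0.90 and 5.24 to 6.87, Timp1 at 1.24 to 2.67 and 4.87 to 7.28, and Adamts19 at -2.56 to -1.0 and 1.17 to 2.78. Timp4 was at -2.57 to -0.74 and 0.04 to 3.52. Timp3, at 5.33 to 7.14 and 4.50 to 6.69, and Timp2, at 3.72 to 4.91 and 2.20 to 4.29, overlapped the other columns. None of these differences was tested.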
